A study of Homo sapiens with 6 samples.

Results

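The genes described here are 40 genes of autophagy, chosen by name and all found on the array, among 18239 genes tested. They were read by 133 of 49293 probe sets, which are groups of short probes for 1 transcript region, and each gene is given by its brightest probe set unless another is named. The measurements come from MV4;11, an established human leukemia line with a rearranged MLL gene (KMT2A), and each group held 3 arrays. One group received 4 µM MI-389, an inhibitor of the binding of menin to MLL, for 6 days. The other received DMSO alone for 6 days, and both carried 0.25% DMSO, with medium and agent renewed on day 3 and the density of viable cells reset. All cells are of 1 line, at 1 dose and 1 time. The labels speak of biological replicates without saying how the cultures were kept apart, so the p-values measure nothing beyond how these samples varied, part of which may be technical.

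Autophagy is the process by which a cell wraps part of its cytoplasm in a double membrane and delivers it to the lysosome. The ULK kinase complex starts it, a lipid kinase built around PIK3C3 marks the membrane with phosphatidylinositol 3-phosphate, and lipid transfer proteins let the membrane grow. A ubiquitin-like conjugation system then couples proteins of the ATG8 family (LC3 and GABARAP) to the membrane, and receptors tie cargo to these proteins. In blood cells autophagy is known for clearing mitochondria and for supplying amino acids in starvation. Transcript levels do not measure the flux through this pathway.

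Values are log2 levels as deposited, so a change of 1 is a 2-fold change, and levels of different probe sets are not comparable with each other. "Rose" and "fell" refer to an adjusted p under 0.05 over all 18239 genes. Nonspecific control probe sets reached 5.49, leaving aside the most GC-rich of them, and 7 of the 40 genes lay under this level in both groups, as did 9311 of all genes. Arrays of a group differed by an SD of 0.122 to 0.167 over probe sets, and arrays of different groups by 0.425 to 0.443. MI-389 replicate 3 stood apart on the second principal component, which held 3.75% of the variance. Among the markers of a myeloid line, 6 of 7 measured genes were above 5.49 in both groups, while the SPI1 probe set stood under it at 4.66 and 3.99. The measured markers of T, B, erythroid and fibroblast cells were all under it, as were 2 of 3 epithelial ones, and the third, KRT18, fell from 6.05 to 4.79. The summed log2 level of the 7 myeloid markers was 56.05 to 56.97 with DMSO and 59.10 to 60.08 with MI-389. Within them 5 rose, among them lysozyme (LYZ) by 2.06 and CSF3R by 1.55, while the receptor kinase FLT3 fell by 1.41 and SPI1 fell by 0.66. The part of this shift in the changes below was not tested. In RNA from a whole culture, a change in the share of cells that express a gene cannot be told apart from a change per cell.

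Transcripts of the pathway moved in both directions with MI-389, and by moderate amounts. BNIP3L, a receptor for mitochondria, rose most, by 0.96 on the log2 scale, and its relative BNIP3 fell most, by 0.74. Within the ATG8 family the LC3 gene MAP1LC3B fell and GABARAP rose. In the ULK complex ATG13 and ATG101 fell, while ATG14 and UVRAG of the lipid kinase rose. Of the 40 genes 14 rose, 8 fell and 18 did not pass the test, beside 18.4% of all genes higher, 15.7% lower and 34.1% changed in either direction. The median change was -0.01, against 0.02 over all genes.

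The share of 55% changed has to be read with the level of these genes. With genes under the 40th percentile of mean level left out, 23 of 38 remaining members changed (60.5%), beside 55.4% of all remaining genes, a share near the background. By class, 6 of 16 initiation genes rose and 3 fell, 5 of 16 conjugation genes rose and 3 fell, and 2 of 6 receptor genes rose and 2 fell. Of the pair of transcription factors, FOXO3 rose. Changes of at least 1.5-fold were found in 6 members (15%), beside 10.0% of all genes, and 0 members changed 2-fold, beside 3.87%. The 3 arrays of one group lay entirely above the other in 15 members and below in 11, beside 24.9% and 20.5% of all genes (45.3% in either direction).

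The hybridisation spike-ins, controls added in fixed amounts for the hybridisation step, were 0.25 higher on the MI-389 arrays over 9 probe sets. They do not measure the amount of RNA in the cells, so centring on them is a check of scale only. Centring the arrays on the spike-ins lowers every change by 0.25 and moves the median of all genes from 0.02 to -0.23. Under it 68.3% of all genes changed, and 11.2% of these were higher. The class counts given below for this centring have to be read beside that share. Of the members, 6 rose and 23 fell. The 6 were ATG14, UVRAG, ATG2B, ATG4C, ATG16L2 and BNIP3L, and all 8 falls were kept. The other 8 rises lost their call. Of these, 7 kept a value above 0, from 0.0013 for ATG9A to 0.16 for PIK3R4, and GABARAPL1 stood at -0.0094. All changes that follow use the deposited scale.

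**Figure D1:**
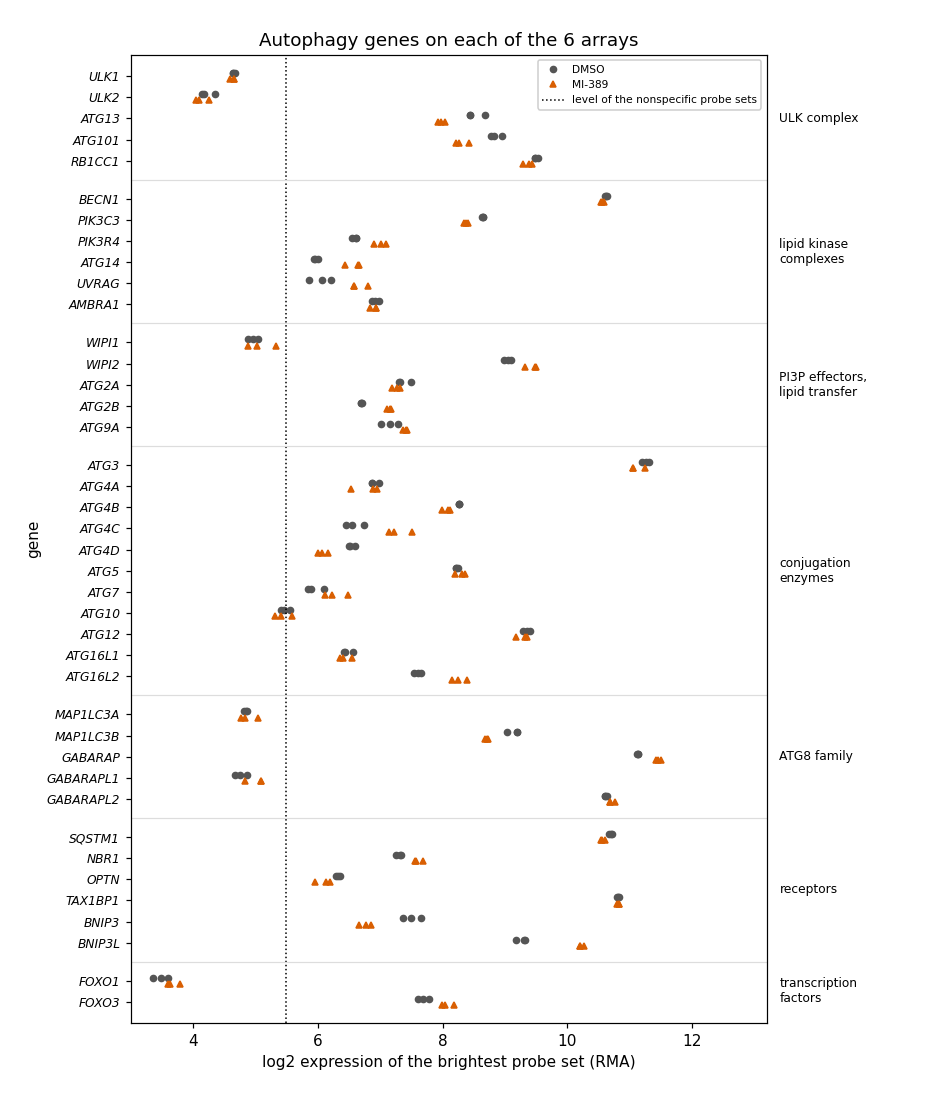
Log2 level of the brightest probe set of each of the 40 genes (vertical axis, by class) on each array, with circles for the 3 DMSO arrays and triangles for the 3 MI-389 arrays. The dotted line marks 5.49, the level of the nonspecific probe sets. The 3 MI-389 points of BNIP3L, at 10.21 to 10.27, lie to the right of the DMSO points, at 9.18 to 9.32, and those of BNIP3 lie to the left.

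The ULK complex phosphorylates the first proteins of the growing membrane and is switched by nutrient kinases. Of its 5 genes 2 fell and 0 rose. The spike-in centring gave 5 lower of 5, but under it 68.3% of all genes changed and only 11.2% of those were higher. ATG13, the adaptor that links the kinase to its scaffold, had levels of 8.68, 8.45 and 8.44 with DMSO and of 7.93, 8.05 and 7.98 with MI-389. ATG101, which stabilises ATG13, had 8.82, 8.79 and 8.95 with DMSO and 8.26, 8.42 and 8.22 with MI-389. In both genes the groups did not overlap. ATG13 fell by 0.54 (SE 0.07, adjusted p = 2.86e-04) and ATG101 by 0.55 (SE 0.07, adjusted p = 1.78e-04). ATG13 had 2 of 3 probe sets lower, the dimmer one under 5.49, and ATG101 had 1 probe set. The scaffold RB1CC1 (FIP200) changed by -0.13 (95% interval -0.26 to -0.00088, adjusted p = 0.118), with 0 of 2 probe sets called. Its groups did not overlap, and it was called lower with an intensity trend and robust variance (adjusted p = 0.0434). The kinases ULK1 and ULK2 lay under 5.49 in both groups, at 4.65 and 4.22 with DMSO, with changes of -0.01 and -0.09. For these dim transcripts the array gives little room to show a change.

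The lipid kinase complexes make phosphatidylinositol 3-phosphate on the autophagic membrane or on endosomes, depending on whether ATG14 or UVRAG is bound. Of 6 genes 3 rose and 1 fell, and 2 rose and 3 fell with the spike-in centring. ATG14 went from 6.01, 5.94 and 5.96 to 6.44, 6.66 and 6.64. UVRAG went from 6.22, 6.06 and 5.86 to 6.58, 6.81 and 6.58. Both alternative partners were thus higher on every MI-389 array, ATG14 by 0.61 (SE 0.07, adjusted p = 6.86e-05) and UVRAG by 0.61 (SE 0.10, adjusted p = 7.08e-04). Of 4 UVRAG probe sets 3 were higher, with changes of 0.25 to 1.06. The largest was carried in part by MI-389 replicate 3, at 7.26 beside 6.65 and 6.63. Of 4 ATG14 probe sets 2 were higher, and the other 2 lay under 5.49. One alternative preferred probe sets without the suffixes _x, _s and _a, which are all called unspecific here. Whether probe sets with these suffixes read other genes was not tested. Both higher ATG14 probe sets carry such a suffix. Under this alternative ATG14 was read by one of its probe sets under 5.49, with a change of -0.0025 and no call.

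PIK3R4, the regulatory subunit VPS15, rose by 0.41 (SE 0.06), from 6.597 ± 0.038 to 7.004 ± 0.098 (mean ± SD, n = 3 each), on its single probe set. PIK3C3, the catalytic subunit VPS34, fell by 0.26 (SE 0.05, adjusted p = 0.00262), with DMSO levels of 8.65, 8.66 and 8.63 and MI-389 levels of 8.38, 8.35 and 8.41. These subunits of 1 complex therefore changed in opposite directions. Set against PIK3C3 on the same arrays, which cancels any shift common to an array, ATG14 changed by 0.87 (SE 0.08) and UVRAG by 0.87 (SE 0.13). BECN1, the beclin subunit, stood at 10.62 ± 0.01 and 10.57 ± 0.03, a change of -0.06 (95% interval -0.17 to 0.06), although 2 of its 6 probe sets were called lower. AMBRA1, a regulator of BECN1, differed by -0.02 (interval -0.15 to 0.11). With the spike-in centring both were called lower, BECN1 at -0.31 and AMBRA1 at -0.27.

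The 250 bases before the start of ATG14 are shown because they hold the letters CACGTG, the E-box bound by the MiT/TFE and MYC families, in capitals, with the first base 21 bases before the start. The stretch is GRCh38.p14 chr14:55411831-55412080, minus strand, from RefSeq.
ATG14: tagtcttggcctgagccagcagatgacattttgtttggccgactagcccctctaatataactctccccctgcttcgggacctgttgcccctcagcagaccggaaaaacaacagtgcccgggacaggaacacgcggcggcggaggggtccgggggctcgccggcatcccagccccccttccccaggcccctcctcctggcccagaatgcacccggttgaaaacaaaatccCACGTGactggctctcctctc

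The proteins that read the lipid mark and feed the membrane came next. Of 5 genes 3 rose and 0 fell, and with the spike-in centring 1 rose and 1 fell. ATG2B, a lipid transfer protein, rose by 0.45 (SE 0.05, adjusted p = 8.18e-05), from 6.71, 6.69 and 6.69 to 7.15, 7.18 and 7.11. Its paralogue ATG2A differed by -0.11 (95% interval -0.26 to 0.04), with 0 of 4 probe sets called. WIPI2, which reads phosphatidylinositol 3-phosphate and recruits ATG16L1, rose by 0.40 (SE 0.07, adjusted p = 8.76e-04), from 9.04, 8.98 and 9.09 to 9.48, 9.50 and 9.33. Of its 3 probe sets 2 were higher and the third stood at -0.17 without a call, so that the average over all was 0.19, still called. Its relative WIPI1 lay under 5.49, with a change of 0.12 (interval -0.11 to 0.35). Of each pair of relatives 1 gene passed the test, and whether the relatives differ was not tested. ATG9A, the membrane protein of the seed vesicles, rose by 0.25 (SE 0.07, adjusted p = 0.021), with 2 of 5 probe sets higher. That call was not kept in every refit with 1 array left out. Such refits called 28.6% to 33.8% of all genes, against 34.1% with no array left out. The call of ATG9A was lost without DMSO replicate 1 (0.25, adjusted p = 0.0588), DMSO replicate 2 (0.19, adjusted p = 0.0893), MI-389 replicate 1 (0.25, adjusted p = 0.0548) or MI-389 replicate 2 (0.24, adjusted p = 0.063). With all probe sets averaged the change of ATG9A was 0.08.

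**Figure D2:**
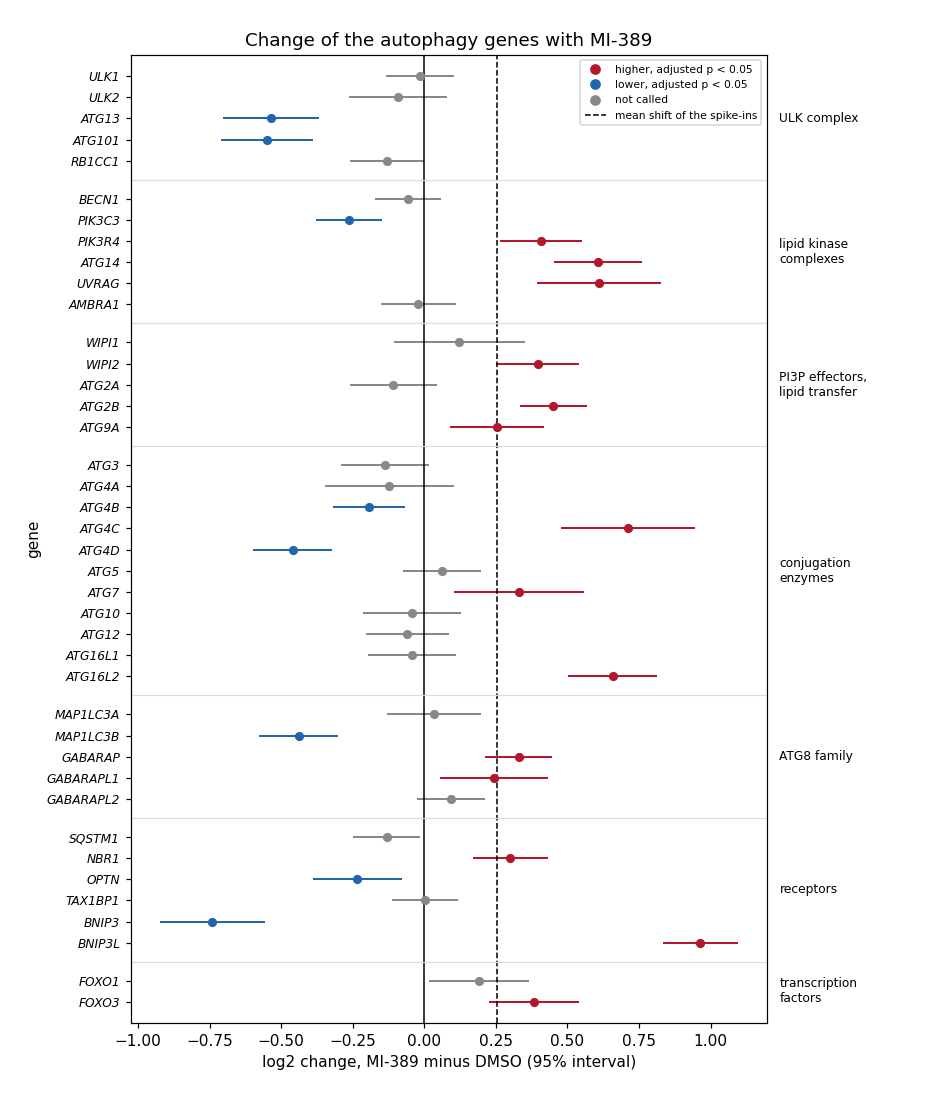
Log2 change of each gene, MI-389 minus DMSO (horizontal axis), with its 95% interval from limma, by class. Red points rose, blue points fell and grey points did not pass an adjusted p of 0.05. The dashed line marks 0.25, the shift of the spike-ins, against which 6 of the 14 red genes were still called higher. BNIP3L at 0.96 and BNIP3 at -0.74 are the ends of the range.

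The conjugation enzymes activate ATG12 and the ATG8 proteins and attach them to their targets. Of 11 genes 3 rose and 2 fell, and 2 rose and 8 fell with the spike-in centring. ATG4C, a protease that trims ATG8 proteins, went from 6.75, 6.54 and 6.46 to 7.22, 7.15 and 7.52, a rise of 0.71 (SE 0.11, adjusted p = 4.06e-04). ATG4D, of the same family, went from 6.50, 6.51 and 6.59 to 6.16, 5.99 and 6.07, a fall of 0.46 (SE 0.06, adjusted p = 2.10e-04). These 2 proteases parted by 1.17 (SE 0.16) on the same arrays. ATG4B, the main protease of the family, fell by 0.19 (SE 0.06, adjusted p = 0.0235), with 3 of 6 probe sets lower. This call too was lost without DMSO replicate 1 (-0.20, adjusted p = 0.0613), DMSO replicate 2 (-0.19, adjusted p = 0.0753), DMSO replicate 3 (-0.19, adjusted p = 0.0621) or MI-389 replicate 1 (-0.15, adjusted p = 0.0858). It was also lost with the replicate number as a block (adjusted p = 0.0516). ATG4A differed by -0.12 (95% interval -0.35 to 0.10), and its dimmer probe set was called lower. A probe set shared by ATG4C and CTR9 was higher by 0.70, and it cannot say which gene it read.

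ATG16L2, a relative of the scaffold that places LC3 on the membrane, rose by 0.66 (SE 0.07, adjusted p = 4.07e-05), from 7.55, 7.66 and 7.61 to 8.39, 8.15 and 8.25. Of its 3 probe sets 2 were higher, and the third was under 5.49. ATG16L1, the main form of that scaffold, differed by -0.04 (95% interval -0.20 to 0.11), and the pair parted by 0.70 (SE 0.09) on the same arrays. The partners of the scaffold did not pass the test. ATG5 differed by 0.06 (interval -0.07 to 0.20) and ATG12 by -0.06 (interval -0.21 to 0.09). ATG10, which joins these proteins, stood at 5.47 and 5.43, under the nonspecific level. ATG7, the enzyme that activates both ubiquitin-like proteins, rose by 0.33 (SE 0.10, adjusted p = 0.029), from 5.90, 6.10 and 5.84 to 6.48, 6.23 and 6.11. Only 1 of its 3 probe sets was called, and the groups nearly touched, at 6.10 and 6.11. The call of ATG7 was lost without DMSO replicate 1 (0.31, adjusted p = 0.0913), DMSO replicate 3 (0.28, adjusted p = 0.104), MI-389 replicate 1 (0.22, adjusted p = 0.0878) or MI-389 replicate 2 (0.35, adjusted p = 0.0525). ATG3, which transfers ATG8 proteins to lipid, differed by -0.14 (interval -0.29 to 0.02) on its brightest probe set. Here the choice of probe set mattered, since 4 of the 6 probe sets of ATG3 were lower, by up to 0.33. It was called at -0.20 without MI-389 replicate 3 (adjusted p = 0.0293) and at -0.21 with all probe sets averaged.

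The ATG8 family itself consists of the LC3 and GABARAP proteins, which line the membrane and bind receptors. Of 5 genes 2 rose and 1 fell, and 0 rose and 2 fell with the spike-in centring. MAP1LC3B, the LC3 form most used as a marker of autophagosomes, went from 9.19, 9.20 and 9.03 to 8.72, 8.68 and 8.71. The fall was 0.44 (SE 0.06, adjusted p = 2.97e-04), and all 3 of its probe sets were lower, by 0.44 to 0.91. One more, shared with the pseudogene MAP1LC3BP1, was lower by 0.97. Near-identical copies of this gene mean that part of the signal may come from them. GABARAP went from 11.14, 11.14 and 11.12 to 11.50, 11.46 and 11.43. Its rise was 0.33 (SE 0.05, adjusted p = 6.87e-04), on 2 of 4 probe sets. It was 0.08 with the spike-in centring and 0.03 with its one probe set without an unspecific suffix, neither called. That probe set stood at 5.78 with DMSO and 5.81 with MI-389, close to the nonspecific level of 5.49. The parting of GABARAP from MAP1LC3B, 0.77 (SE 0.05), does not depend on the scale of the arrays. GABARAPL2 differed by 0.09 (95% interval -0.03 to 0.21), with 0 of 4 probe sets called. MAP1LC3A and GABARAPL1 lay under 5.49 in both groups. GABARAPL1 passed the test at 0.24 (adjusted p = 0.0489) with overlapping groups. Without DMSO replicate 1 or 2 it stood at 0.20 and 0.23 (adjusted p = 0.163 and 0.13), and without MI-389 replicate 1 or 2 at 0.20 and 0.20 (adjusted p = 0.147 and 0.152). The replicate block also ended the call of GABARAPL1 (adjusted p = 0.0844).

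The upstream stretches of this opposed pair are shown for comparison, in lower case throughout because none of the motifs searched was found there. They are GRCh38.p14 chr16:87392086-87392335, plus strand, for MAP1LC3B and chr17:7242450-7242699, minus strand, for GABARAP, from RefSeq.
MAP1LC3B: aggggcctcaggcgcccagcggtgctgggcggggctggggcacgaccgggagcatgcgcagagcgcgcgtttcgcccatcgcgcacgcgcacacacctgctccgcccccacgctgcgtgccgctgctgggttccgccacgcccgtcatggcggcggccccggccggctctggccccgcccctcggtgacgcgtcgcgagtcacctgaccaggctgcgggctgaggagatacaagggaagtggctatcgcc
GABARAP: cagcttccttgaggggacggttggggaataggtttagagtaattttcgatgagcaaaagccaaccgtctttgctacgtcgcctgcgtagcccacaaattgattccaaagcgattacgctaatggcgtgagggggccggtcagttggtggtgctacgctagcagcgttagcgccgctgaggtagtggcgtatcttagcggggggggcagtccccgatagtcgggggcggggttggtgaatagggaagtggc

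**Figure D3:**
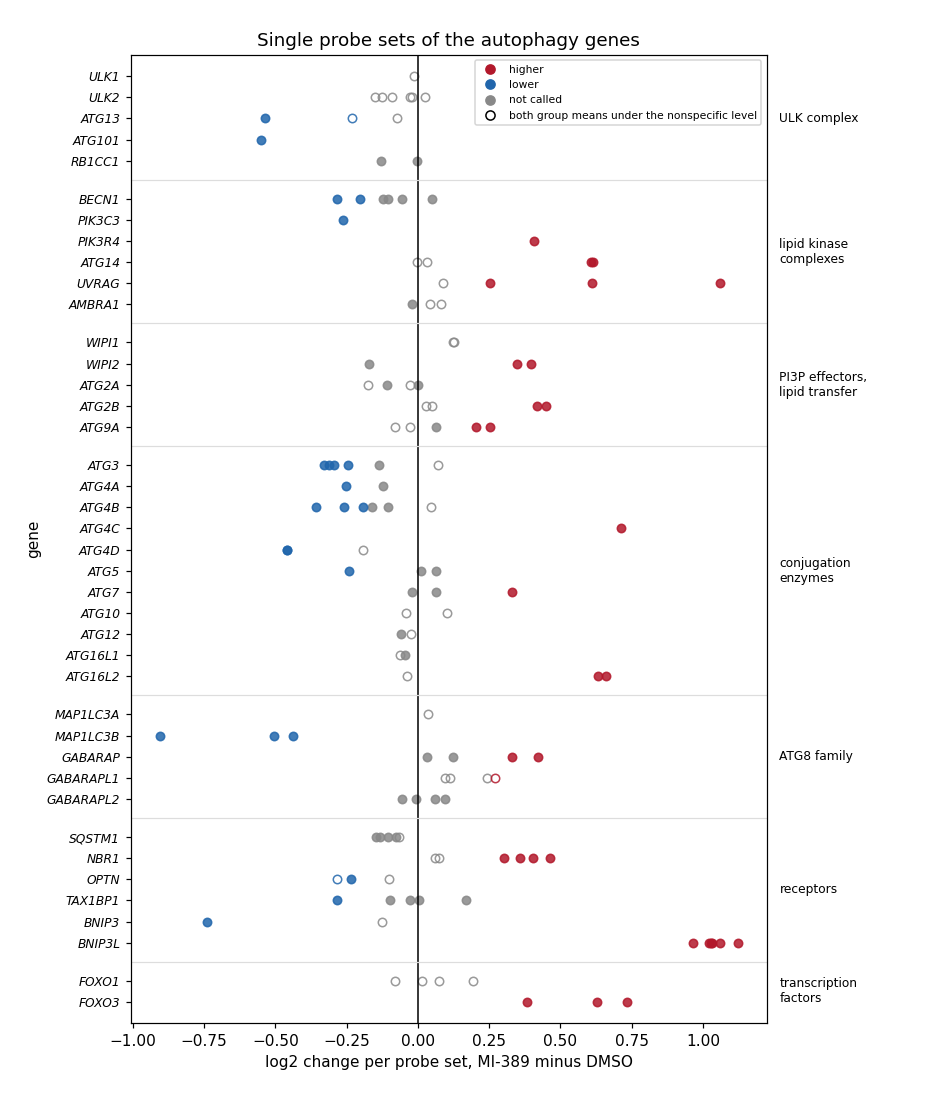
Log2 change of every one of the 133 probe sets of the 40 genes (1 point each), MI-389 minus DMSO, coloured by call over all 49293 probe sets. Open points have both group means under 5.49. All 6 points of BNIP3L and all 3 of FOXO3 lie to the right, all 3 of MAP1LC3B to the left, and no gene has red and blue points together.

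Receptors bind a cargo at one end and an ATG8 protein at the other. BNIP3L (NIX) sits in the outer mitochondrial membrane and is known for the removal of mitochondria in maturing red cells. Its levels were 9.32, 9.30 and 9.18 with DMSO and 10.21, 10.27 and 10.21 with MI-389. All 6 of its probe sets rose, by 0.96 to 1.12, and the brightest was 1.95-fold higher (SE 0.06 on the log2 scale, adjusted p = 7.82e-07). BNIP3, the close relative with the same place in the cell, had levels of 7.65, 7.37 and 7.49 with DMSO and 6.78, 6.66 and 6.86 with MI-389. BNIP3 fell by 0.74 (SE 0.08, adjusted p = 5.75e-05). The relatives parted by 1.704 (SE 0.12) on the same arrays. The second probe set of BNIP3 lay under 5.49 and changed by -0.13 without a call, which is also the value when probe sets without unspecific suffixes are preferred.

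The other 4 receptors of the list bind ubiquitin-tagged cargo. NBR1 rose by 0.30 (SE 0.06, adjusted p = 0.00238), from 7.26, 7.33 and 7.32 to 7.58, 7.55 and 7.68. Of its 6 probe sets 4 were higher, by 0.30 to 0.46, and the others lay under 5.49. One of these was the probe set read when unspecific suffixes were avoided, at 0.07 with no call. OPTN fell by 0.23 (SE 0.07, adjusted p = 0.0242), with 2 of 3 probe sets lower, 1 of them under 5.49. Without DMSO replicate 1, 2 or 3 the change of OPTN was -0.23, -0.25 and -0.22 (adjusted p = 0.0681, 0.0509 and 0.0765), and without MI-389 replicate 2 it was -0.17 (adjusted p = 0.0731), none of them called. SQSTM1 (p62), the receptor that is itself degraded by autophagy, differed by -0.13 (95% interval -0.25 to -0.01, adjusted p = 0.0841). Its groups did not overlap, at 10.72, 10.71 and 10.68 against 10.54, 10.56 and 10.61, and 0 of 5 probe sets were called. It was called at the same size with dim genes left out (adjusted p = 0.044) and with an intensity trend and robust variance (adjusted p = 0.00868). TAX1BP1 differed by 0.0034 (interval -0.11 to 0.12), and 1 of its 5 probe sets was called lower.

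The upstream stretch of BNIP3 is shown because, among changed members with a promoter found, it is the other with a CACGTG. BNIP3L was not among these. The motif is again in capitals, with the first base 134 bases before the start. The stretch of BNIP3 lies at GRCh38.p14 chr10:131981924-131982173, minus strand, from RefSeq.
BNIP3: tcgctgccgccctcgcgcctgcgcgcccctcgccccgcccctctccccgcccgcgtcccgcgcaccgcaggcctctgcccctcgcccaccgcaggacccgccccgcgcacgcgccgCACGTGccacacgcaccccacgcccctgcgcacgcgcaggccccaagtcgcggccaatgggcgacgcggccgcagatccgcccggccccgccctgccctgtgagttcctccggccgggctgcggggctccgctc

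Promoters, taken as 250 bases before to 50 after the start, were found for 35 of the 40 genes, 8 of them with several starts. None was found for UVRAG, BNIP3L, RB1CC1, ATG4D and MAP1LC3A, so these genes were not searched. Motifs were searched on both strands, and a match is a description only. CACGTG occurred in 3 of the 35 genes (8.57%), namely ATG14, BNIP3 and ATG3, beside 8.77% of 27305 genes in the table. TGATGNAA, the composite element of C/EBP and ATF4, occurred in 0 of 35 genes, beside 4.46% of all. GTAAACA, a core of FOXO binding sites, also occurred in 0, beside 4.19%. Of the members that rose 12 had an entry and 1 held CACGTG, and of those that fell 7 had an entry and 1 held it.

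FOXO3 and FOXO1 are transcription factors known to drive autophagy genes when growth factor signalling is low. FOXO3 went from 7.61, 7.78 and 7.69 to 7.998, 8.19 and 8.04, a rise of 0.38 (SE 0.07, adjusted p = 0.00167). All 3 of its probe sets were higher, by up to 0.73, and 2 of the 5 that it shares with the copy FOXO3B. With the spike-in centring it stood at 0.13, not called. FOXO1 lay at 3.48 and 3.67, under the nonspecific level, and its change of 0.19 missed the threshold (adjusted p = 0.0881, 95% interval 0.02 to 0.37). It was called without DMSO replicate 2, at 0.25 (adjusted p = 0.0493).

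Over the single probe sets of the 40 genes, 32 of 133 were higher and 24 lower (42.1% in all), beside 14.0% and 14.0% of all probe sets (28.0%). No gene had probe sets called in both directions. Of the 133, 45 had both group means under 5.49, and 3 of these were called. Of the 88 others 31 were higher and 22 lower. The share of 42.1% thus has to be read with the level of these probe sets, and the share among all probe sets of like level is not given here. A further 5 genes had a called probe set while not called in the test over genes, which were BECN1, ATG3, ATG4A, ATG5 and TAX1BP1, all lower. GABARAPL1 passed the test over genes, but over all probe sets its brightest one did not (adjusted p = 0.0602, limma). A dimmer GABARAPL1 probe set, also under 5.49, was called higher there (adjusted p = 0.0181). Averaging all probe sets of a gene kept the calls but reduced the changes of ATG13 to -0.28, ATG14 to 0.31, ATG2B to 0.24, ATG16L2 to 0.42 and BNIP3 to -0.43, and raised that of FOXO3 to 0.58. UVRAG stood at 0.25, still called, when unspecific suffixes were avoided.

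Among 31 other genes of the machinery and further receptors, 30 were measured, 11 rose and 9 fell (6 and 17 with the spike-in centring), with a median of -0.0028. That is 66.7% changed, beside 34.1% of all genes. In the refit with dim genes left out 55.4% of all genes changed, and this list was not recounted there. The 3 largest rises and falls are given here. CCPG1, a receptor for the endoplasmic reticulum, fell from 10.80, 10.82 and 10.66 to 8.02, 7.94 and 7.98, 6.88-fold, on 8 of 8 probe sets. With probe sets free of unspecific suffixes preferred, the change of CCPG1 was -1.31 in place of -2.78. CALCOCO2 (NDP52), a receptor for bacteria and damaged mitochondria, fell by 1.40 on 5 of 5, and TEX264, another receptor of the endoplasmic reticulum, by 0.50 on 2 of 2. WDFY3 (ALFY), a scaffold for protein aggregates, rose by 1.23 with its DMSO level under 5.49, and by 0.13 with no call when probe sets without unspecific suffixes were preferred. FUNDC1, a receptor for mitochondria, rose by 0.81, and NCOA4, the receptor for ferritin, by 0.79. All of these but WDFY3 kept their call under all 17 alternatives. 

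A further list held 18 genes of AMPK and mTORC1, the kinases that switch ULK1 on and off, together with their regulators. Of these 7 rose and 1 fell (5 and 7 with the spike-in centring). The median was 0.14, and 44.4% changed, beside 34.1% of all genes. In the refit without dim genes 55.4% of all genes changed, and this list was not recounted there. DEPTOR, an inhibitor inside the mTOR complexes, rose by 1.18, from 7.43, 6.97 and 7.24 to 8.35, 8.60 and 8.24. The AMPK subunits PRKAG2 and PRKAB2 rose by 0.86 and 0.63, the latter by 0.08 and uncalled when probe sets without unspecific suffixes were preferred. MLST8, a subunit of both mTOR complexes, fell by 1.57 on 4 of 4 probe sets. Among 10 measured transcription regulators 3 rose and 3 fell (1 and 5 with the spike-in centring), with a median of 0.02. That is 60% changed, beside the same 34.1% and 55.4% of all genes, again without a recount. ATF4 and DDIT3 (CHOP), which drive autophagy genes under amino acid shortage and stress, fell, with changes of -1.40 and -1.86, and DDIT3 reached 4.47, under 5.49. CEBPB fell by 0.27, and its call was lost without DMSO replicate 1 (-0.23, adjusted p = 0.073) or MI-389 replicate 1 (-0.21, adjusted p = 0.0624). E2F1 rose by 0.42, and 0.17 with the spike-in centring was not called. ZKSCAN3, a repressor of autophagy genes, rose by 0.53 and MITF by 0.26, both under 5.49 in both groups, and MITF lost its call without DMSO replicate 2 (0.22, adjusted p = 0.0565). TFEB, named after its value was seen, differed by -0.10 (95% interval -0.27 to 0.07).

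**Figure D4:**
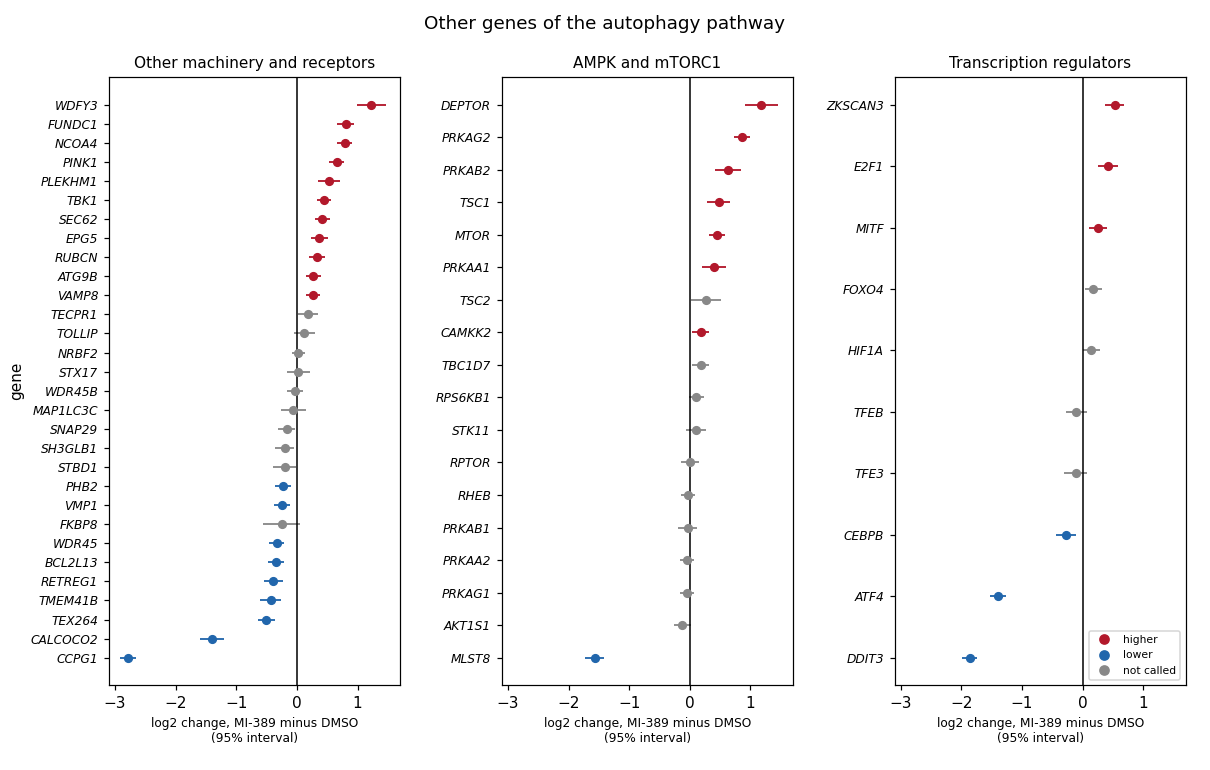
Log2 change of the other genes of the pathway, MI-389 minus DMSO, with 95% intervals, in 3 lists ordered by change. Red rose, blue fell and grey did not pass an adjusted p of 0.05. CCPG1 at -2.78, DDIT3 at -1.86 and MLST8 at -1.57 lie far to the left, and WDFY3 at 1.23 and DEPTOR at 1.18 to the right.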

How the data were processed

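RNA from 6 cultures was hybridised to Affymetrix arrays after 3-prime labelling, per the labels' protocols. The deposited log2 values, 1 per probe set and array, were made with RMA, and limma is also named, per the submitters' processing notes; no version, setting or list of jointly normalised arrays was found in the sources used here. Array medians were 4.47 to 4.50. Arrays have no read depth, and their number sets the precision.

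Of 49386 probe sets 93 were controls. Gene names came from the platform annotation, updated by Entrez ID through the RefSeq table of GRCh38.p14 (45172 of 45253 one-gene probe sets matched). The 9 probe sets naming a member and another gene were not used for genes. Each gene took the probe set with the highest mean. MI-389 was compared with DMSO in R 4.3.3 with limma 3.58.1, by a two-sided moderated test on lmFit and eBayes without covariates, and p-values were adjusted by Benjamini-Hochberg across all genes or across all probe sets. In simulated data on 18239 genes it recovered 16% of 50 genes changed by 0.25, 64% at 0.5 and 100% at 1 or 2, and called 7 of 18039 genes that were left unchanged. Far fewer genes changed there than the 34.1% called in the data. The adjustment was therefore stricter in the simulation, and its recovery rates do not carry over to the data.

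All 40 members are described, and up to 3 rises and 3 falls of each further list. Members, lists and tests were chosen with earlier results of these data known. The marker and list genes without a probe set of their own were not analysed here. The motifs, the promoters printed and the pairs set against each other were chosen after the values were seen, so these carry no test. Alternatives covered scaling, dim features, the replicate number, variance model, weights, single arrays, probe set choice and threshold.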

Additional observations from a re-analysis of the deposited data

How the results depend on the processing

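Of the 22 changed members, 8 kept direction and call under all 17 alternatives (ATG13, ATG101, UVRAG, ATG2B, ATG4C, ATG4D, ATG16L2 and BNIP3L), and 17 kept them without each array in turn. With single arrays left out, 11 to 14 members rose, 6 to 9 fell, and 8 to 9 initiation, 5 to 9 conjugation and 3 to 4 receptor genes changed. Without MI-389 replicate 3, which stood apart, 14 rose and 9 fell. Under spike-in centring 6 members rose and 23 fell, and 12453 genes and 33091 probe sets changed, against 6214 and 13800 as reported. Of the changed genes 11.2% were then higher, against 53.9%. ATG5 (-0.19), MAP1LC3A (-0.22), TAX1BP1 (-0.25) and GABARAPL1 (-0.0094, not called) turned sign there, as did GABARAPL2 (-0.16), WIPI1 (-0.13) and FOXO1 (-0.06), none of these 3 called, since that centring lowers all genes alike. An intensity trend with robust variance gave 13 higher and 11 lower, adding RB1CC1, ATG3 and SQSTM1. ATG14 turned to -0.0025 when plain probe set suffixes were preferred, where 2 receptor genes changed. Against a fold of 1.2 (limma treat), 6 members rose and 4 fell, and 5 initiation, 3 conjugation and 2 receptor genes, 2457 genes and 5346 probe sets passed, because the test asks for a larger change. At an adjusted p under 0.01, 5 conjugation genes passed. Deviations of arrays with equal replicate numbers correlated at -0.18, 0.03 and -0.11, and 1 of 6 arrays correlated best with its own number. No pairing by number was seen, but 3 arrays per group are too few for this check to exclude it. With the replicate block 13 members rose and 7 fell, and it changed no other member call than those of ATG4B and GABARAPL1. Signal near background limits 7 members.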
